A study of Mus musculus with 14 samples.

Results

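The cytosolic ribosomal protein genes encode the protein subunits of the cytoplasmic ribosome. They were taken as every protein-coding gene with the symbol Rpl or Rps, a number and an optional a, x or l, together with Rplp0, Rplp1, Rplp2 and Rpsa. The rule selected 81 of the 21887 protein-coding genes of a RefSeq table of mouse build GRCm38. Of these, 50 encode proteins named for the large subunit and 31 proteins named for the small subunit. The choice rests on symbols only and uses no measured value, but it was made with earlier results of these data known. Widely and steadily expressed genes such as these serve as a reference for promoter chromatin, which is the use made of them here.

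The data were chromatin immunoprecipitation sequencing peak lists from ATDC5, a mouse teratocarcinoma-derived cell line that differentiates along the chondrocyte lineage in culture. The groups were H3K4me3 on days 0, 3 and 10 and RUNX2 on days 0, 3 and 10, with 2 libraries in each. Day 0 cells were undifferentiated, and cells of days 3 and 10 were grown as dense droplets with beta-glycerophosphate and an ascorbate phosphate. All libraries come from 1 unmodified cell line, and the labels do not state whether the libraries of a group are separate cultures or repeats from 1 culture. The 2 input libraries were not analysed here. Of the chondrocyte markers, Sox9 and Col2a1 had an H3K4me3 peak in 6 lists, Comp in 5, and Acan, Col9a1 and Matn3 in 4. Myod1 and Myog of muscle, Snap25 of neurons, Pou5f1 and Nanog of pluripotent cells and Cdh5 of endothelium had a peak in 0 lists, while Ptprc of blood cells and Neurod1 of neurons had a peak in 3, Pecam1 of endothelium in 2 and Cd3e of T cells in 1.

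Ribosomal proteins are needed in matched amounts, and their genes are transcribed at high rates in nearly every cell type. Many of the transcripts begin with a C followed by a run of pyrimidines, the 5′ terminal oligopyrimidine (TOP) tract, through which the mTORC1 pathway controls their translation. The genes are short, their introns often carry small nucleolar RNAs, and reverse-transcribed copies of their mRNAs have left many pseudogenes. H3K4me3 is a histone mark on the nucleosomes that flank active and poised transcription starts. RUNX2 is a runt-domain transcription factor required for the maturation of hypertrophic chondrocytes and for osteoblast formation, and its family binds DNA sites with the core TGTGGT. Reduced doses of some ribosomal proteins cause Diamond-Blackfan anaemia in humans, and variants of others alter the skeleton.

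The promoters of 5 of the genes are shown, from 60 bases before the annotated start to 20 bases from it. Rplp0, Rpl13 and Rpl38 stand for marked genes, the first as a common reference gene and the other two for their known skeletal phenotypes, and Rpl10l and Rpl32l are the members in which no peak was called. Capitals mark a TOP-like tract, a C followed by at least 4 pyrimidines that begins within 10 bases of the start. All are RefSeq sequences on GRCm38.p6, given on the strand of the gene: Rplp0 at chr5:115559407-115559486 (+), Rpl13 at chr8:123102290-123102369 (+), Rpl38 at chr11:114668520-114668599 (+), Rpl10l at chr12:66284382-66284461 (-) and Rpl32l at chr10:20208379-20208458 (+).
Rplp0: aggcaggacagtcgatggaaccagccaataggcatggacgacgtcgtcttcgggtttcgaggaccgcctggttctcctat
Rpl13: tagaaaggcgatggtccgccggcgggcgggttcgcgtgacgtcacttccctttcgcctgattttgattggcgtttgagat
Rpl38: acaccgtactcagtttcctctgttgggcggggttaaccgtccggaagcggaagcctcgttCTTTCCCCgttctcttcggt
Rpl10l: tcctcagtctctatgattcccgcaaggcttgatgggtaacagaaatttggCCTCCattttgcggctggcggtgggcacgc
Rpl32l: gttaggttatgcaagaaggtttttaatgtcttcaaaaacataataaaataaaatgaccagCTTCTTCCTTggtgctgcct
In Rpl38 the tract opens at the annotated start and runs for 8 bases, and in Rpl32l it opens there and runs for 10. In Rpl10l a tract of 5 bases opens 10 bases before the start. Rplp0 and Rpl13 have 1 annotated start each, and no tract begins within 10 bases of it. In both printed sequences a C followed by at least 4 pyrimidines opens just outside that limit.

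A promoter entry, and with it a start and a strand, was matched for 61 of the 81 members and for 17492 promoters in all. Each entry runs from 250 bases before the start to 50 after it, and both strands were searched. The RUNX core TGTGGT was found in 5 of the 61 windows (8.2%, against 15.1% of all promoters): those of Rpl6, Rpl18, Rps2, Rps12 and Rps25. The ETS core CCGGAAG was found in 24 (39.3%, against 11.9%), and the YY1 core AAGATGG in 9 (14.8%, against 6.35%). The SP1 core GGGCGG was found in 35 (57.4%, against 46.3%), CCAAT in 19 (31.1%, against 39.2%) and TATAAA in 7 (11.5%, against 13.3%). A TOP-like tract on the strand of the gene began near 37 of the starts (60.7%, against 31.1%), and one of at least 8 bases, a length chosen after the values were seen, near 21 (34.4%, against 8.17%). The median GC content was 57% in members and 56.3% in all promoters, and the observed over expected CpG ratio was 0.857 in members and 0.577 in all promoters. These shares describe letters in a window and not binding. The windows end 50 bases after the start, and the RUNX2 summits measured below lay at least 196 bp after it.

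Properties of the libraries bear on everything that follows. The H3K4me3 lists held between 13765 and 29022 peaks, and the shortest were replicate 1 of day 0 (13765) and replicate 1 of day 10 (15219). For RUNX2, the day 3 lists had 19319 and 16859 peaks, and those of the other days between 97 and 108. The RUNX2 summits of day 3 nearly coincided between replicates: of the 19319 summits of replicate 1, 76.4% lay within 10 bp of a summit of replicate 2 and 46.5% at the same base. For the H3K4me3 pairs of one day, 3.17, 5.18 and 5.47% lay within 10 bp on days 0, 3 and 10. Whether the RUNX2 day 3 libraries share DNA or reads was not tested, so their agreement is not counted below as a repeat and each list is given alone. In replicate 1 of H3K4me3 day 0 and of H3K4me3 day 10, the summits lay nearer to those of RUNX2 day 3 than to those of their own replicates, as described below for the members, and whether a sample or antibody was exchanged was not tested. The RUNX2 day 3 peak widths, fold enrichments and q-values did differ between replicates. Scores of a peak are comparable only within its list, and a gene without a peak is one in which none was called at the unknown depth of that library.

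H3K4me3 stood at almost every ribosomal protein gene on each day. A peak overlapping the gene span, extended by 1 kb at each end, was present in both libraries of day 0, of day 3 and of day 10 at the same 79 of 81 members, and these 79 had a peak in all 6 lists. The background over all protein-coding genes was 52.2% on day 0, 61.6% on day 3, 56.8% on day 10 and 51.9% in all 6 lists. The share is 97.5% of members, although their windows are the smaller ones, since the median gene length was 3175 bp in members and 17169 bp in all genes. No member gained or lost a peak between days (0 of 81 in each case). For all genes, the background was 3.2% gained and 0.00914% lost on day 3 against day 0, 0.0503% gained and 0.58% lost on day 10 against day 3, and 1.15% gained and 0.00457% lost on day 10 against day 0. The 79 members marked on every day had no peak to gain, and loss was rare over all genes. The counts of 0 therefore do not set the members apart from other genes marked on day 0.

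The exceptions were Rpl10l and Rpl32l, for which 0 peaks of either antibody were called in any list (2 of 81 members, against a background of 32.3% of all genes without an H3K4me3 peak in any list). Rpl10l, a copy of Rpl10 without introns that replaces it in male germ cells when the X chromosome is silenced, spans chromosome 12 from 66283379 to 66284401. Rpl32l spans chromosome 10 from 20208439 to 20209030. The X-linked parent gene Rpl10, in contrast, had a peak of 1601 and 1324 bp on day 0, 3248 and 1655 bp on day 3 and 902 and 1395 bp on day 10. Among 317 pseudogenes named for ribosomal proteins, 0 had an H3K4me3 peak in all 6 lists, against a background of 0.892% of all 10429 pseudogenes. RUNX2 peaks in both day 3 lists were present at 1 of them (0.315%, against a background of 1.85%). How reads that match several of these near-identical copies were treated is not known here, so values at copies are uncertain.

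The other restricted paralogs analysed had a peak in their windows. Rpl39l, a paralog of Rpl39 that is enriched in testis, had a peak nearest its own start in every H3K4me3 list and in both RUNX2 lists of day 3. Its H3K4me3 peak was 910 and 1419 bp wide on day 0, 2514 and 1841 bp on day 3 and 769 and 1899 bp on day 10. Its rank was low to middling, at percentiles of 29.6 and 57.1 on day 0, 60.8 and 55.3 on day 3, with 37.8 and 57.7 on day 10. The percentile is the share of a list's peaks with a −log10 q at or below that of the peak. Rpl3l, a paralog of Rpl3 restricted to skeletal and cardiac muscle, was counted as marked through its neighbour. Its best peak, meaning the peak with the highest −log10 q in the window, had a summit 8430 to 9045 bp downstream of the Rpl3l start in the 6 lists, where the nearest start was that of Msrb1, a methionine sulfoxide reductase gene. Rps4l, a further listed paralog, was no protein-coding entry of the table under the rule and was not analysed here.

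The H3K4me3 peaks of the members were wider than those of genes in general in 5 of the 6 lists. The median width of the best peak was 1399 and 1776 bp on day 0, 2297 and 1869 bp on day 3 and 1229 and 2062 bp on day 10, for replicates 1 and 2. All protein-coding genes with a peak had medians of 1118 and 1266 bp on day 0, 1904 and 1537.5 bp on day 3 and 1260 and 1682 bp on day 10. The medians of members were thus 1.21 to 1.40 times those of all genes in 5 lists and 0.975 times in replicate 1 of day 10. The 78 mitochondrial ribosomal protein genes, which serve the ribosome of that organelle, had medians of 1214.5 and 1219.5 bp on day 0, 1800 and 1560.5 bp on day 3 and 1182 and 1632.5 bp on day 10, below the cytosolic members in every list. The best peak covered a median of 27.7 to 48.7% of the span of a member over the 6 lists, as the genes are short.

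**Figure D1:**
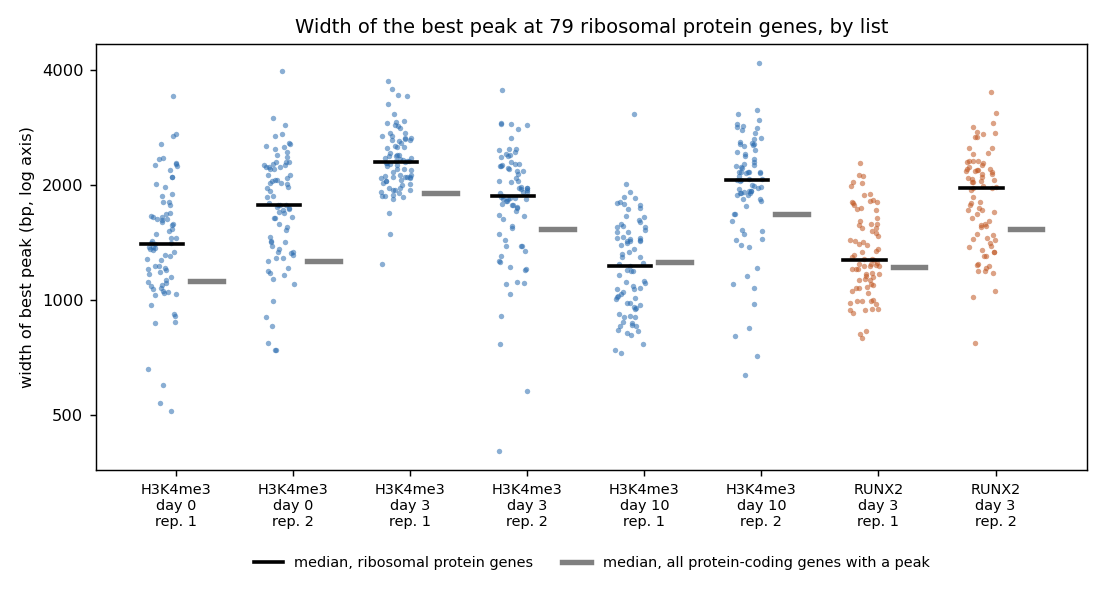
Width of the best peak in bp (log axis) at 79 ribosomal protein genes in the 6 H3K4me3 lists (blue) and the 2 RUNX2 lists of day 3 (orange). Each point is 1 gene, the black line is the median of the ribosomal protein genes and the grey line that of all protein-coding genes with a peak; in replicate 1 of H3K4me3 day 10 the medians are 1229 and 1260 bp.

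Widths varied between replicates of a day as well as between days. Of the 79 marked members, 51 had their widest peak in replicate 1 of day 3 and 57 their narrowest in replicate 1 of day 10. The widest peak of a member was a median of 2.03 times its narrowest (range 1.26 to 5.83). These values were not computed over all genes, so they are not known to be particular to the members. The median width of all genes with a peak was also highest in replicate 1 of day 3 (1904 bp). It was lowest in replicate 1 of day 0 (1118 bp). Peaks were wider in both lists of day 3 than in both lists of day 0 at 41 of 79 members (51.9%), against a background of 72.2% of the 11366 genes with a peak in all 6 lists. The median log2 ratio of the day means, day 3 over day 0, was 0.34 in members and 0.54 in all these genes. The reverse, narrower on day 3, held for 1 member, Rps2 (background 0.29%). On day 10 against day 3, 16 members were narrower (20.3%, background 23%) and 0 wider (background 0.695%), with a median log2 ratio of -0.31 in members and -0.23 in all genes. On day 10 against day 0, 1 member was wider (Rps12, 1.27%, background 27.1%) and 4 were narrower (5.06%, background 1.76%), among them Rpl27 and Rps28, with a median log2 ratio of -0.02 in members and 0.28 in all genes. These 4 names were chosen after their values were seen.

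The comparisons over days turned on which libraries entered, and a day with 1 list meets the rule more easily than a day with both. Without replicate 1 of day 0 and replicate 1 of day 10, a choice made after the values were seen, 55 members were wider on day 10 than on day 0 and 24 narrower (69.6 and 30.4%, backgrounds 88.4 and 11.6%). On day 10 against day 3, 20 were wider and 18 narrower (25.3 and 22.8%, backgrounds 24.8 and 24.5%). On day 3 against day 0, 45 were wider and 11 narrower (57 and 13.9%, backgrounds 77.1 and 3.28%). In both forms a smaller share of members than of all genes was wider on day 3 than on day 0. Without replicate 2 of day 10, 71 members were narrower on day 10 than on day 3 and 58 narrower than on day 0, and without replicate 2 of day 3, 58 were narrower on day 10 than on day 3 and 66 wider on day 3 than on day 0. Without replicate 2 of day 0, 64 were wider on day 3 than on day 0 and 13 wider on day 10 than on day 0. Without replicate 1 of day 3, 10 were narrower on day 3 than on day 0 and 6 wider on day 10 than on day 3. No direction of change in width between days 3 and 10, or between days 0 and 10, held over these choices. The counts with a single library left out were made for members only, so they do not set the members apart from all genes. The number of peaks in the lists moves with these widths, at 28653 and 26781 on day 3 and 13765 and 20863 on day 0, and its part in the result was not tested.

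The widest marked members were Rpl7, Rps18 and Rpl10a. Rpl7, a large-subunit protein gene on chromosome 1, carried peaks of 3423 and 3958 bp on day 0, 3730 and 3546 bp on day 3 and 3061 and 4154 bp on day 10. Rps18 had peaks of 2684 and 2714 bp on day 0, 2812 and 2801 bp on day 3 and 2006 and 2879 bp on day 10, and shares its upstream region with the divergent gene Vps52, which acts in vesicle tethering. Rpl10a had peaks of 2712 and 2506 bp on day 0, 3410 and 2861 bp on day 3 and 1188 and 2814 bp on day 10. For Rpl10a the day 10 replicates lay further apart than any other pair of its lists from one day. The narrowest by mean width were Rpl3l, whose best peak lay at Msrb1 as given above, Rps29 and Rpsa. Rps29, a zinc-binding protein of the small subunit, had peaks of 968 and 1193 bp on day 0, 1244 and 1538 bp on day 3 and 820 and 1073 bp on day 10. Rpsa, which encodes the small-subunit protein also described as a laminin receptor, had peaks of 1574 and 738 bp on day 0, 2565 and 580 bp on day 3 and 985 and 714 bp on day 10. Its low mean came from the 3 replicate 2 lists, in which the best peak lay wholly upstream of the start, with its summit 437, 485 and 444 bp before it on days 0, 3 and 10, and another peak was called in the window as well.

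Members with a divergent neighbour had the wider peaks in every H3K4me3 list, and hosts of small nucleolar RNAs in 5 of the 6. An opposite-strand start lay within 1 kb of the start of 10 of the 61 members with a known start. These 10 had median H3K4me3 widths of 1877 and 2424 bp on day 0, 2504.5 and 2246 bp on day 3 and 1641 and 2547 bp on day 10. The 49 other marked members had 1338 and 1693 bp on day 0, 2278 and 1841 bp on day 3 and 1071 and 1948 bp on day 10, lower in each list. In addition, 58 small nucleolar RNAs lay within the spans of 29 members. Neither group was counted or measured over all protein-coding genes, so whether these traits are particular to the members is not known here. The 29 hosts had median widths between 1332 and 2338 bp over the lists, and the 50 other marked members between 1141 and 2275 bp, and hosts were the narrower group in replicate 2 of day 3 (1837 against 1885.5 bp). Large-subunit genes had median widths of 1213.5 to 2311 bp and small-subunit genes of 1245 to 2282 bp, with the small-subunit genes the wider group in replicate 1 of day 10 alone among the 6 lists.

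Within a list the peaks of the members ranked above the middle. The median percentile by −log10 q was 73.3 and 81.3 on day 0, 86.0 and 84.7 on day 3, with 67.8 and 85.3 on day 10. The best peaks of all protein-coding genes with a peak had medians of 62.1 and 69.4 on day 0, 76.9 and 74.7 on day 3, with 63.7 and 76.5 on day 10. By this measure members were above all genes in each list, by the smallest margin in replicate 1 of day 10. By fold enrichment the direction turned in that list, with a median percentile of 63.8 in members and 64.1 in all genes. Mitochondrial ribosomal protein genes reached 76.4 and 81.3 on day 0, 89.2 and 84.4 on day 3, with 77.8 and 86.9 on day 10, so that they ranked above the cytosolic genes in 4 of the lists despite narrower peaks. The members spread widely, between percentiles of 16.8 and 99.2 in replicate 1 of day 0 and between 60.8 and 99.5 in replicate 1 of day 3.

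**Figure D2:**
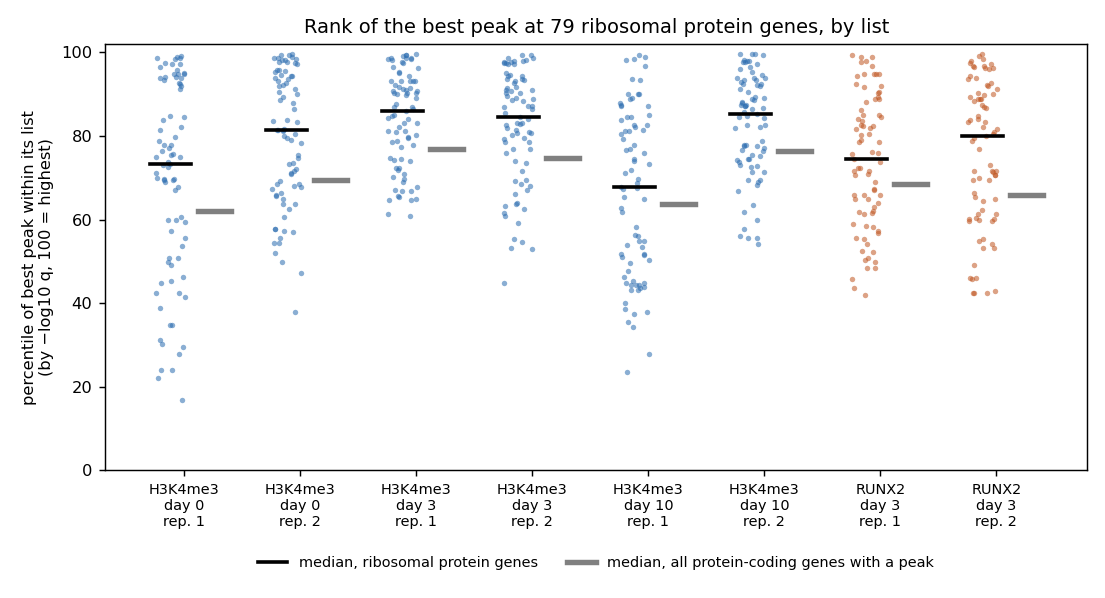
Rank of the best peak at 79 ribosomal protein genes as a percentile of its own list by −log10 q (100 is the highest), in the 6 H3K4me3 lists (blue) and the 2 RUNX2 lists of day 3 (orange). Points are genes, black lines their medians and grey lines the medians of all protein-coding genes with a peak; the points of H3K4me3 day 3 replicate 1 all lie above 60.8, while those of day 0 replicate 1 reach down to 16.8.

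RUNX2 peaks were called at the same 79 members on day 3 and at none of the 81 on the other days. The background for a RUNX2 peak in both day 3 lists was 58.4% of all protein-coding genes, and for a peak in any list of day 0 or day 10 it was 0.0731% (16 genes). Day 3 was thus the only day on which RUNX2 lists of more than 108 peaks existed, and the absence on days 0 and 10 is shared by nearly all genes. The median RUNX2 width at members was 1274 and 1959 bp in replicates 1 and 2, and that at all genes with a peak 1220 and 1531 bp. The median percentile was 74.4 and 79.9 in members and 68.6 and 65.9 in all genes. By fold enrichment it was 60.7 and 76.3 in members and 65.1 and 66.0 in all genes, so that the direction turned in replicate 1. Mitochondrial ribosomal protein genes all had a RUNX2 peak in both lists (78 of 78), with median percentiles of 84.9 and 80.7. Of 18 translation factor and other TOP mRNA genes, such as Eef1a1 and Pabpc1, and of 20 ribosome biogenesis genes, such as Fbl, every gene had H3K4me3 in all 6 lists and RUNX2 in both day 3 lists. RUNX2 peaks of day 3 were thus called at every gene of these groups as well.

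By the mean RUNX2 percentile of day 3, the highest members included Rpl5 and Rpl21. Rpl5, which with Rpl11 and 5S rRNA forms the particle that restrains Mdm2 when ribosome assembly fails, ranked at 98.9 and 99.6. Rpl21, a large-subunit protein gene, ranked at 99.5 and 98.0. The lowest were Rpl36a, Rps13 and Rps4x. Rpl36a ranked at 43.7 and 42.9, Rps13 at 50.3 and 42.4 and Rps4x at 49.9 and 45.7. The lists of day 3 placed both ends of the order alike, but they share their summits as described above. Rpl36a and Rps4x are X-linked, as are Rpl10, at 56.8 and 54.2, and Rpl39, at 52.6 and 71.5, so that the X-linked members lay below the medians of 74.4 and 79.9 in both lists. Rps13 and the X-linked Rps4x also ranked low for H3K4me3 in replicate 1 of day 0, at 27.8 and 16.8.

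The summit of the RUNX2 peak lay within the gene span at 78 of the 79 marked members in each day 3 list (98.7%, against 85.2 and 84.9% of all genes with a peak), and the exception was Rpl3l. At the 59 marked members with a start, the RUNX2 summit was a median of 427 bp downstream of it in replicate 1 and 427 bp in replicate 2, and 0 of 59 summits were upstream. Among summits within 1 kb of the start, 57 of 57 were downstream in each list, between 196 and 850 bp in replicate 1 and between 197 and 850 bp in replicate 2, against a background of 84.4 and 84.6% of all genes. The median over these summits was 422 and 422 bp in members and 273 and 274 bp in all genes. The remaining RUNX2 summits were those of Rpl22, 1805 bp into the gene in both lists, and of Rpl3l, 9026 bp from its start and beyond its 8318 bp span, at Msrb1. Mitochondrial ribosomal protein genes had median distances of 233 and 234 bp, with 84.1 and 87.0% of 69 summits downstream. The nearest gene start to the RUNX2 summit, or nearest gene end where no start was matched, was the member's own at 77 of 79 members in each list. This was not counted over all genes.

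The H3K4me3 summits were split around the start. The median distance was 423 and 206 bp on day 0, 131 and 163 bp on day 3 and 337 and 154 bp on day 10, and 5 and 22, 23 and 20, and 3 and 20 of the 59 summits lay upstream. In replicate 1 of day 0 and replicate 1 of day 10, the summits within 1 kb were downstream at 90.7 and 94.6% of members, against backgrounds of 82.8 and 84.8% of all genes. In the other lists, the share was 58.5% (replicate 2 of day 0, background 70.0%), 57.4 and 64.8% (day 3, backgrounds 63.1 and 63.8%) and 64.3% (replicate 2 of day 10, background 65.7%). The 2 short lists thus placed the summit mostly inside the gene and the other 4 placed it on either side.

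**Figure D3:**
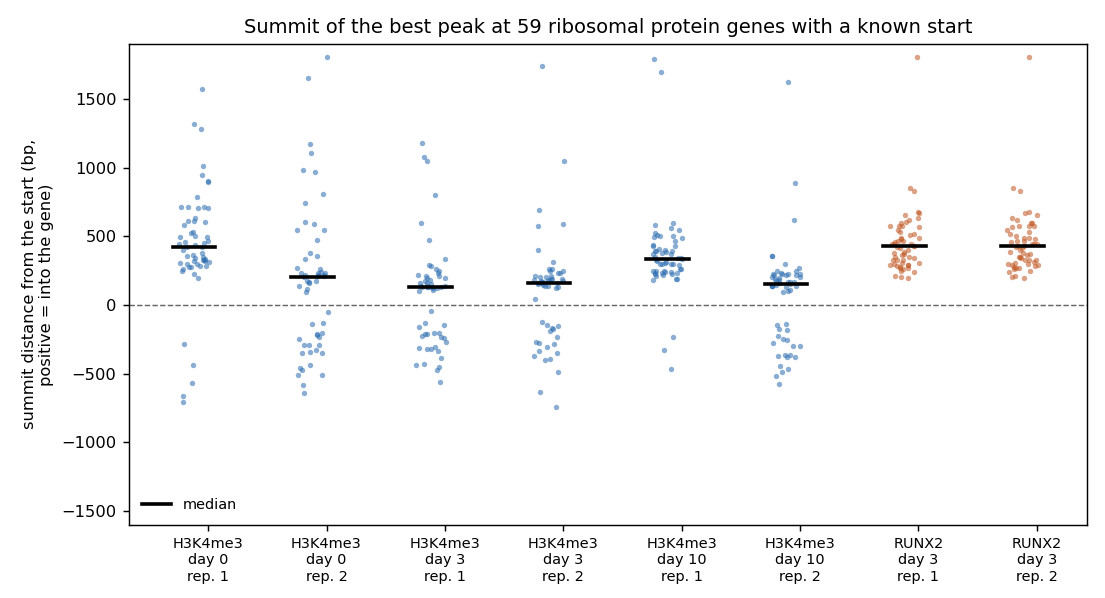
Distance of the summit of the best peak from the annotated start in bp (positive values run into the gene) at the 59 marked ribosomal protein genes with a known start, for the 6 H3K4me3 lists (blue) and the 2 RUNX2 lists of day 3 (orange), with medians as black lines. The plot holds 459 points, and 13 points of 4 genes (Rpl3l, Rpl4, Rpl19 and Rplp0) lie outside it; no RUNX2 point is below 0.

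Compared list by list, the same grouping appeared in the distance between the summits at a given member. The median distance between the RUNX2 summits of day 3 and those of H3K4me3 was 57 bp for replicate 1 of day 10 and 138 bp for replicate 1 of day 0. It was 345 to 383 bp for the other H3K4me3 lists, including both of day 3. The grouping was not particular to the members, since over all genes with both peaks the median was 73 bp for replicate 1 of day 10, 111 and 112 bp for replicate 1 of day 0 and 210 to 270.5 bp for the other H3K4me3 lists. Between the H3K4me3 replicates of one day the median was 455 bp on day 0, 114 bp on day 3 and 328 bp on day 10 in members, and 237, 152 and 216 bp over all genes. Within the RUNX2 pair of day 3 it was 0 bp, with 55 of 79 summits at the same base (69.6%, against 60.3% of all genes), 77 within 10 bp (97.5%, against 91.1%) and the furthest 62 bp apart. The smallest distance between H3K4me3 lists was 62 bp, between replicate 2 of day 10 and replicate 1 of day 3 (127 bp over all genes). The H3K4me3 libraries numbered 1 on days 0 and 10 were therefore nearer to the RUNX2 libraries of day 3 than to their own replicates. Peak lists cannot settle whether these libraries hold the sample and antibody of their labels, so every value given for them is that of the library labelled H3K4me3.

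**Figure D4:**
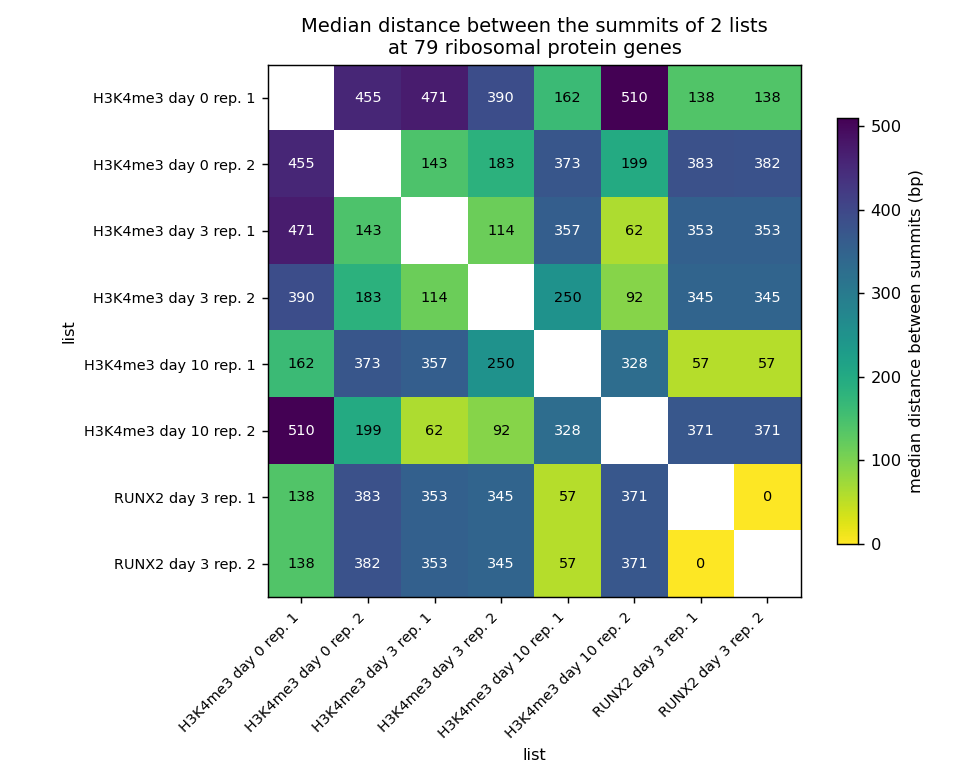
Median distance in bp between the summits of the best peaks of 2 lists at the 79 marked ribosomal protein genes, for each pair of the 6 H3K4me3 lists and the 2 RUNX2 lists of day 3. The RUNX2 pair has a median of 0 bp, and both RUNX2 lists are 57 bp from H3K4me3 day 10 replicate 1 and 345 or 353 bp from the H3K4me3 lists of day 3.

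On day 3 the RUNX2 and H3K4me3 peaks of the members overlapped but were not centred together. The best RUNX2 peak overlapped the best H3K4me3 peak in both same-numbered pairs at 73 of 81 members (90.1%, background 51.4% of all genes, those without peaks included). In the pair of replicates 1, the peaks overlapped at 78 of 79 members (98.7%) and at 93.7% of all genes with both peaks. In the pair of replicates 2 they overlapped at 73 (92.4%) and at 91.6% of all such genes, so that among genes with both peaks the shares were near each other. The RUNX2 peak lay inside the H3K4me3 peak at 76 members in the pair of replicates 1 (96.2%, against 87.4% of all genes with both peaks) and at 25 in the pair of replicates 2 (31.6%, against 35.4%). The median ratio of RUNX2 to H3K4me3 width was 0.60 and 0.995 in members and 0.66 and 0.955 in all such genes. The RUNX2 summit was the further downstream at 52 and 54 of 59 members (88.1 and 91.5%), against 65.2 and 64.5% of all genes with a start and both peaks. The median shift was 373 and 345 bp in members and 88 and 84 bp over all these genes. Members without an overlap were Rplp0 in both pairs, and Rpl13a, Rpl19, Rpl36, Rps16 and Rpsa in the pair of replicates 2.

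Just before the start, coverage by peaks dipped in most lists. RUNX2 peaks of replicate 1 left the start of 13 of 59 members (22%, background 8.21%) uncovered between flanking peaks that each came within 1 kb, and those of replicate 2 the start of 6 (10.2%, background 3.53%). The H3K4me3 lists did so at 3 and 7 members on day 0 (5.08 and 11.9%, backgrounds 5.89 and 8.76%). They did so at 0 and 6 on day 3 (0 and 10.2%, backgrounds 0.7 and 5.19%) and at 8 and 3 on day 10 (13.6 and 5.08%, backgrounds 3.06 and 3.95%). Rps16 was among these in both RUNX2 lists, as were Rpl34 and Rpl37. At least 1 in 2 of the 61 members was covered from 750 bp before to 1500 bp after the start in replicate 1 of H3K4me3 day 3, and from 450 bp before to 900 bp after it in replicate 1 of day 10. In replicate 1 of RUNX2 day 3, the positions that most members shared lay after the start, with 57 of 61 covered at 150 bp. Coverage by position is given for members only, so it does not set them apart from other genes. Over all genes, RUNX2 summits within 1 kb of the start were also mostly downstream in that list (84.4%).

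**Figure D5:**
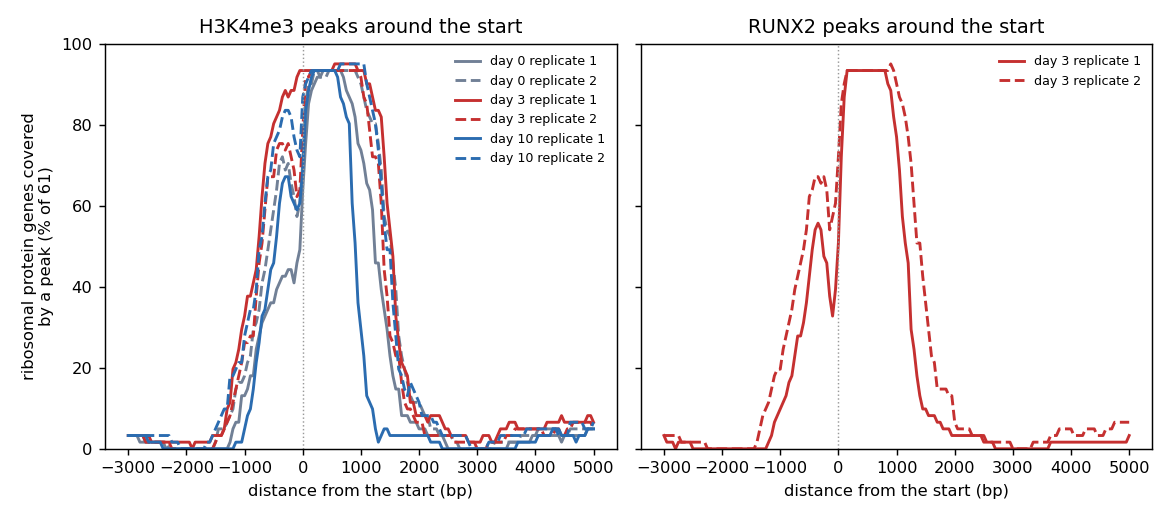
Share of the 61 ribosomal protein genes with a known start that had any peak at each distance from the start (bp, positive values run into the gene), for H3K4me3 (left; day 0 grey, day 3 red, day 10 blue) and RUNX2 day 3 (right), with replicate 1 solid and replicate 2 dashed. Coverage reaches 93.4 to 95.1% inside the gene in every list and dips near the start in most of them.

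The stalk proteins recruit translation factors to the ribosome. Rplp0, whose protein anchors the stalk, had summits 297 and 267 bp into the gene on day 0 and 245 and 227 bp on day 10. On day 3 the best peaks were instead 5683 and 5616 bp downstream, nearest to Gcn1, which encodes an activator of the Gcn2 kinase. Its RUNX2 summits were 286 and 285 bp into the gene, so the missing overlap at Rplp0 follows from which peak of the window was the best. Its H3K4me3 widths were 1618 and 1337 bp on day 0, 1899 and 1740 bp on day 3 and 1021 and 1434 bp on day 10, and the day 3 values are those of the peak at Gcn1. Rplp1 had widths of 1647 and 2057 bp on day 0, 2312 and 2167 bp on day 3 and 1429 and 2071 bp on day 10. Rplp2 had widths of 1300 and 1962 bp on day 0, 1859 and 1668 bp on day 3 and 972 and 1909 bp on day 10. Of the stalk genes, Rplp0 ranked highest by RUNX2 in both day 3 lists, at percentiles of 98.0 and 88.9, with Rplp1 at 58.4 and 59.9 and Rplp2 at 64.0 and 65.3.

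Of the 5S particle genes, Rpl5 stood near the top of the H3K4me3 lists and Rpl11 less uniformly so. Rpl5 ranked at H3K4me3 percentiles of 98.6 and 99.7 on day 0, 97.8 and 99.4 on day 3, with 98.5 and 89.4 on day 10. Its widths of 1373 and 1693 bp on day 0, 1938 and 1837 bp on day 3 and 1229 and 1998 bp on day 10 were close to the medians of the members. Rpl11 ranked at 93.8 and 91.8 on day 0, 95.0 and 87.0 on day 3, with 62.8 and 98.0 on day 10. Its peaks were 1085 and 1430 bp on day 0, 1832 and 1492 bp on day 3 and 1067 and 1760 bp on day 10, narrower than the median member in each list. Rank and width therefore did not go together at these genes.

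Among genes with a known skeletal phenotype, Rpl13 and Rpl38 ranked highly. Rpl13, in which variants cause a spondyloepimetaphyseal dysplasia in humans, ranked at 94.1 and 98.6 on day 0, 98.6 and 97.2 on day 3, with 76.7 and 98.3 on day 10. Its widths were 2008 and 1931 bp on day 0, 2338 and 2205 bp on day 3 and 1315 and 2228 bp on day 10, above the median member in every list. Its RUNX2 summit lay 368 bp into the gene in both day 3 lists, where it ranked at 82.5 and 79.5. Rpl38, mutated in the tail-short mouse with its axial skeleton defects, ranked at 92.6 and 97.6 on day 0, 89.7 and 89.5 on day 3, with 81.4 and 86.5 on day 10. Its RUNX2 summit lay 850 bp into the gene in both lists, the furthest of the 57 within 1 kb, and ranked at 94.9 and 95.9. Rpl24, mutated in the belly spot and tail mouse, ranked at 81.4 and 80.1 on day 0, 72.3 and 93.4 on day 3, with 44.7 and 87.5 on day 10, with RUNX2 summits 376 bp into the gene. The day 10 replicates of Rpl24 were the furthest apart of the days. Neither RUNX2 nor H3K4me3 was called at these genes on a pattern of days that other marked members lacked.

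The small-subunit examples were Rps6, Rps19 and Rps27a. Rps6, the protein phosphorylated by S6 kinases downstream of mTORC1, had widths of 1214 and 2127 bp on day 0, 2533 and 2443 bp on day 3 and 906 and 2553 bp on day 10. Its RUNX2 summit lay 531 bp into the gene in both day 3 lists, at percentiles of 72.3 and 60.3. Rps19, the gene most often affected in Diamond-Blackfan anaemia in humans, had widths of 1338 and 1645 bp on day 0, 2689 and 1934 bp on day 3 and 860 and 2466 bp on day 10. It ranked below the median member in every list, at 53.7 and 68.5 on day 0, 61.2 and 53.0 on day 3, with 44.4 and 54.2 on day 10. For both genes the narrowest peak was in replicate 1 of day 10. All 15 genes of a list linked to that anaemia in humans had H3K4me3 in all 6 lists, RUNX2 in both lists of day 3 and overlapping best peaks in both pairs (backgrounds 51.9, 58.4 and 51.4% of all genes). The shares of all members were 97.5, 97.5 and 90.1%, so the counts do not set the anaemia genes apart from the other members. Rps27a, which encodes a ribosomal protein fused to ubiquitin, had widths of 1675 and 2263 bp on day 0, 2321 and 2289 bp on day 3 and 1552 and 2162 bp on day 10. The nearest gene end to its summit was that of Clhc1 in replicate 1 of days 0 and 10 and in both RUNX2 lists.

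The X-linked members were marked throughout, with ranks that were mostly below the median member. Other X-linked genes were not examined here. Rps4x ranked at 16.8 and 60.7 on day 0, 70.1 and 60.9 on day 3, with 23.5 and 68.9 on day 10, below the median member in each list. Rpl10, a late-joining protein of the large subunit, ranked at 49.0 and 74.7 on day 0, 74.3 and 80.9 on day 3, with 44.4 and 77.6 on day 10, also below the median in each. Rpl36a ranked at 57.3 and 54.5 on day 0, 77.8 and 91.0 on day 3, with 37.4 and 72.5 on day 10, above the median in replicate 2 of day 3 alone. Rpl39, a short protein of the exit tunnel, ranked at 69.7 and 68.1 on day 0, 65.7 and 93.1 on day 3, with 35.5 and 73.1 on day 10, again above the median in replicate 2 of day 3 alone. The widths of Rpl39 were above the median member in every list, at 1978 and 2090 bp on day 0, 2625 and 2399 bp on day 3 and 1782 and 2828 bp on day 10. The number of X chromosomes in these cells is not known here.

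Not every best peak belonged to the member whose window it touched. The nearest gene start, or nearest gene end where no start was matched, was the member's own in all 6 H3K4me3 lists at 61 of 79 members, and in at least 4 lists at 74. No such count was made over all genes. Rps28, which faces Ndufa7, a gene of respiratory complex I, had its H3K4me3 summit 185 to 281 bp upstream of its start in all 6 lists, each nearest to Ndufa7. Its RUNX2 summit lay 571 bp inside Rps28 in both day 3 lists. A second peak or more was called in the window of 13 to 30 marked members over the 6 H3K4me3 lists, and of 28 and 20 in the RUNX2 lists of day 3. A single peak was called at 49 of 79 members and 8080 of 13000 genes with a peak in replicate 2 of H3K4me3 day 0. It was called at 66 of 79 and 9487 of 14062 in replicate 1 of day 3, and at 57 of 79 and 9697 of 12447 in replicate 1 of day 10. In the RUNX2 lists it was called at 51 and 59 of 79 members, against 8857 of 13038 and 9559 of 12834 genes. Where a window held several peaks, width and summit may depend on how the caller divided the signal, which was not tested.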

How the data were processed

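ChIP-seq peaks of ATDC5 cells were read from 12 deposited narrowPeak lists, 1 per library. The submitters' processing notes list MACS2, HISAT2 2.2.0, FastQC and Trim Galore, and the labels give 75 bp reads. The notes name another build, but the positions match genes of GRCm38, so that build was used. Per the format's column order, the authors' lists give a score, the fold enrichment as a ratio, and −log10 of the p-value and q-value of each peak. The lowest −log10 q of a list lay between 1.30 and 1.63. Peaks were called per library. The sources used here do not give depth, duplicate handling or use of the input.

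Overlapping lines were merged, on assembled chromosomes. A gene had a peak when at least 1 bp overlapped its span extended by 1 kb. The best peak had the highest −log10 q, and its width, percentile and summit distance were taken with Python 3.11.15, numpy 2.4.6 and pandas 2.3.3. Starts came from RefSeq promoter entries, and for several starts the outermost was used. Wider or narrower on a day means in both of its lists against both lists of the other day. No test was made, since an exact permutation test of 2 libraries against 2 cannot reach 0.05 and members were chosen with results known. Scores are comparable only within a list, and the widths compared between days carry the differences between lists. A linear model was not run. Values are set beside those of all protein-coding genes. The overlap and summit code was tested on simulated peaks.

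Members and lists were chosen with earlier results of these data known. Genes named with values were those without a peak, the 3 widest and 3 narrowest for H3K4me3, the 3 highest and 3 lowest for RUNX2 on day 3, and fixed examples (stalk, 5S particle, skeletal, X-linked, restricted paralogs, Rpsa, Rps6, Rps19, Rps27a). Others were named after their values were seen. Some items that the rule names are not reported here. Alternatives covered a stricter q, equal list sizes, other windows, joined peaks, ranks by fold enrichment, near-miss symbols and each library left out.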

Additional observations from a re-analysis of the deposited data

How the results depend on the processing

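Of 326 alternative values for 31 results, 294 stayed within 1.5 times the count or within 1 SD between libraries and 32 moved. For a median averaged over 2 libraries, leaving 1 out stays within that SD by construction. Those values are among the 294 and do not speak for stability. Each count was compared on its own, and the balance of wider and narrower members did turn. On day 10 against day 0, 52 were wider and 8 narrower without replicate 1 of day 10, against 1 wider and 4 narrower in all lists. On day 10 against day 3, 20 were wider and 18 narrower without it, against 0 wider and 16 narrower in all lists. The counts of members with a peak, gained or lost peaks and overlapping peaks were among those that stayed under every alternative run. That rule is loose for them, since 79 of 81 members cannot rise by 1.5 times. In windows of 1 kb around the start, 76 members had an H3K4me3 peak in both libraries of day 0, and 76 in all 6 lists. Members marked on every day have no peak to gain, so the counts of 0 gained do not speak for stability. With peaks closer than 500 bp joined, the median width on day 0 was 1903.5 bp, the median H3K4me3 percentile on day 3 was 83.4, 0 members were narrower on day 3 than on day 0 and 2 were wider on day 10 than on day 0. The H3K4me3 percentile of day 3 (85.3 as reported, as the mean of both lists) was 80.5 at a −log10 q of at least 5, 70.9 with equal numbers of top peaks and 82.3 by fold enrichment, and the RUNX2 percentile by fold enrichment was 68.6. The RUNX2 summit distance of 427 bp, for which the SD between lists is 0, was 424.5 bp in windows of 1 kb around the start and by fold enrichment, 427.5 bp with the near-miss symbols and 422 bp for summits within 1 kb. Without the 2 shortest H3K4me3 lists, 11 members were narrower on day 3 than on day 0, 20 wider on day 10 than on day 3, and 55 wider and 24 narrower on day 10 than on day 0. With each H3K4me3 library left out in turn, 43 to 66 members were wider and 1 to 11 narrower on day 3 than on day 0, 0 to 20 wider and 17 to 71 narrower on day 10 than on day 3, and 3 to 52 wider and 8 to 58 narrower on day 10 than on day 0. A day with 1 list left meets the rule more easily, by construction. The counts with a single library left out were not made over all genes, so they describe the choice of lists and no trait particular to the members.
No paired analysis was possible because no result comes from a test. The unknown depth of the libraries limits every absent peak, and the cause of these shifts was not tested.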
